A study of Homo sapiens with 6 samples.

Results

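The genes described here are 38 components of the autophagy machinery, read by symbol from a table of 19830 genes that compares PANC-1 cells after SOX9 knockdown with their controls. They were chosen by name, for their roles in starting, building, loading and closing autophagosomes, and all 38 were found. PANC-1 is an established human cell line derived from a ductal adenocarcinoma of the pancreas. SOX9 is a transcription factor of pancreatic duct and progenitor cells. The groups were 2 libraries from cells given 25 nM SOX9 siRNA and 2 from cells given 25 nM control siRNA, both with a lipid reagent and both harvested at 48 hours as pooled transfected cells. Nothing else distinguishes the groups in the labels, and both are of 1 line. The study also has 2 SOX9 ChIP-seq samples, which were not analysed here.

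Autophagy encloses cytoplasm in a double membrane and delivers it to lysosomes. The ULK kinase complex starts it, a class III PI3-kinase complex marks the membrane with a lipid signal, and ATG9 and ATG2 supply lipid. A conjugation system related to ubiquitination then couples proteins of the ATG8 family (the LC3 and GABARAP proteins) to the membrane, where they bind cargo receptors. Pancreatic ductal tumours are known for high basal autophagy.

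None of the 38 autophagy genes changed past the threshold after SOX9 siRNA. In the authors' deposited table, 0 rose and 0 fell at a DESeq2 adjusted p under 0.05, where 1.81% of the 14063 tested genes (those given an adjusted p) did, 122 higher and 132 lower. At an unadjusted p under 0.05 there were 3 members: ULK2 and ATG13, 2 subunits of the initiation complex, were lower, and ATG16L2, of the conjugation system, was higher. That is 7.89% of the members, beside 11.1% of all tested genes (4.98% higher and 6.15% lower). The median log2 fold change of the members was 0.02, with 19 positive and 19 negative, and that of all tested genes was -0.02, with 47.9% positive. Reads from bulk cultures cannot tell less RNA per cell from fewer cells that express a gene.

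The values are the authors' DESeq2 comparison, which gives 1 mean over all libraries, 1 log2 fold change and 1 standard error per gene. It has no value for a single library, so the spread between libraries enters through the standard error alone. Intervals here are 95% Wald intervals, 1.96 standard errors to each side. The labels do not tie the 2 libraries of a group to separate cultures, so the spread behind each p-value may be technical. Fold changes are read as SOX9 siRNA over control because the header does not name the numerator and SOX9 itself is negative. SOX9 had a mean normalized count of 2483 and a log2 fold change of -0.84 (standard error 0.26) in the authors' deposited table, with a DESeq2 adjusted p of 0.0643. SOX9 stood at 55.9% of control (39.2% to 79.8%), so the siRNA target did not pass the threshold either, and every direction would turn if the sign were read the other way. The epithelial keratins KRT8 and KRT18 and the mesenchymal filament VIM had mean normalized counts of 203350, 130452 and 133073 in the authors' deposited table. KRT8 stood at 146.5% of control (115.2% to 186.3%) and KRT18 at 141.3% (112.5% to 177.4%), with DESeq2 adjusted p-values of 0.0786 and 0.106 there, and VIM at 103.3% (84.7% to 126.0%).

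All 38 members had an adjusted p, with mean normalized counts from 360 for ATG16L2 to 54810 for SQSTM1. Their median was 2706, against 1279 for all tested genes. These counts are not divided by gene length, so they say how many reads back a value and not which gene is expressed more. The median standard error of the members' log2 fold changes was 0.181, against 0.215 for all tested genes. The largest p called was 0.000901, which corresponds to 3.32 standard errors. At that distance the smallest estimated change that would be called was 1.43-fold for the best measured member, ATG4B, and 1.52-fold at the median. It was under 2-fold for 37 members, and GABARAPL1 was the exception. These are sizes of estimates at a cutoff set by the same data, and a true change of that size could still be missed. A share of 63.2% of the members (24 of 38) had intervals wholly inside a 1.5-fold change in either direction, and 92.1% (35 of 38) inside a 2-fold change. Among the 10033 tested genes with mean counts at or above the lowest member's, these shares were 55.6% and 91.8%. Of those genes, 2.10% had a DESeq2 adjusted p under 0.05 and 13.0% an unadjusted p under 0.05. Their median standard error was 0.191.

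**Figure D1:**
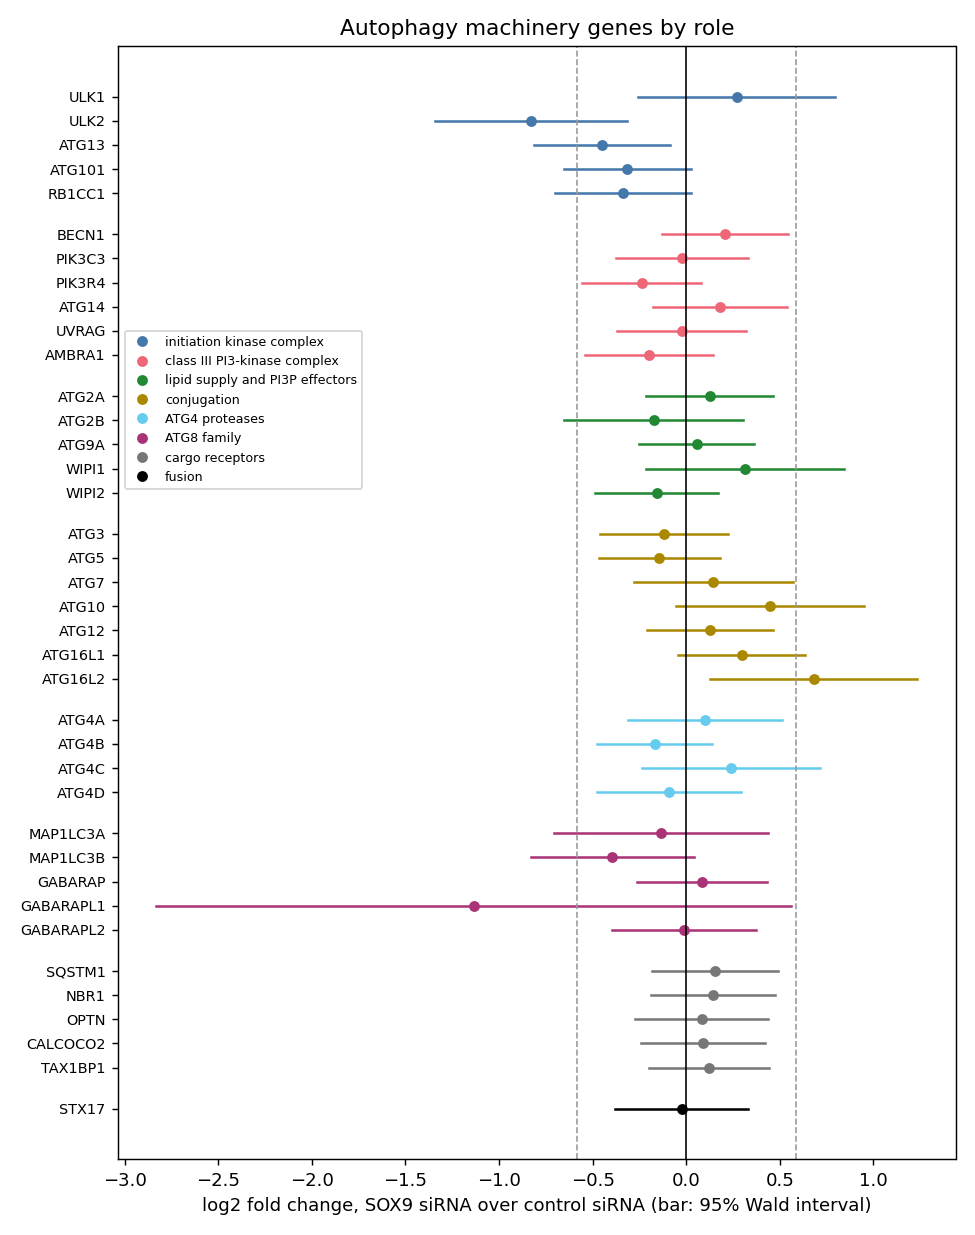
Log2 fold change of each autophagy gene (point) with its 95% Wald interval (bar), coloured by role; dashed lines mark 1.5-fold changes and the solid line no change. The cargo receptors and the class III PI3-kinase genes lie inside the dashed lines with their whole intervals, while the 5 genes of the initiation complex each cross one of them.

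**Figure D2:**
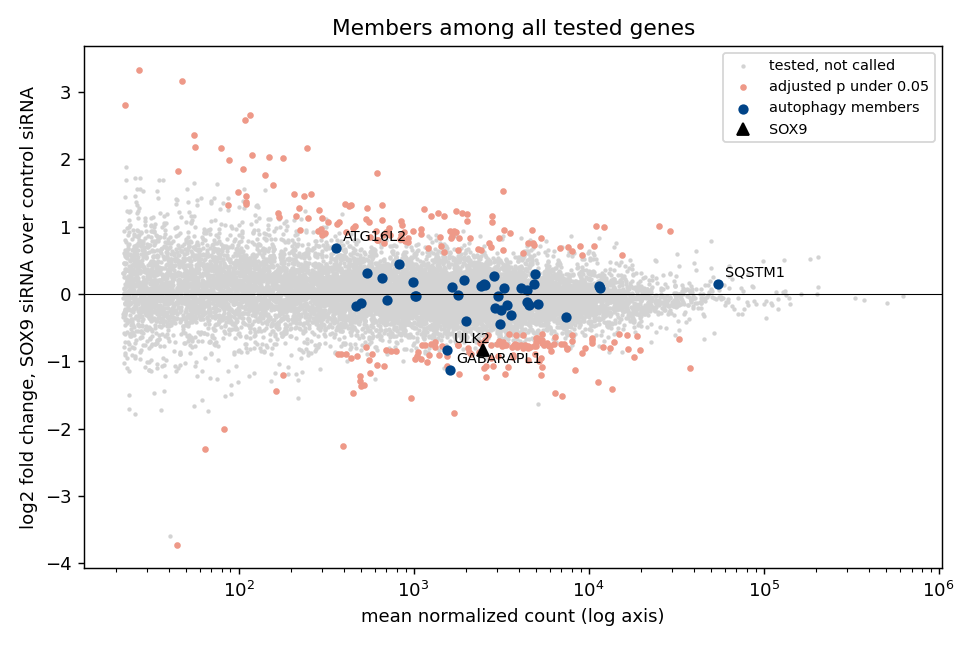
Mean normalized count (log axis) against log2 fold change for the 14063 tested genes in grey, the 254 genes with an adjusted p under 0.05 in light red, the 38 autophagy genes in blue and SOX9 as a triangle. ULK2 and SOX9 lie close together, and the blue points otherwise lie within the grey cloud apart from GABARAPL1.

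The initiation complex had the lowest median of the roles with more than 1 gene, -0.34, and 4 of its 5 genes were negative. ULK2, one of its alternative catalytic kinases, had a mean normalized count of 1549 and a log2 fold change of -0.83 (standard error 0.26) in the authors' deposited table. ULK2 stood at 56.2% of control (39.4% to 80.2%), and its DESeq2 adjusted p was 0.0697, the smallest among the members. By p it ranked 303 of all tested genes, and its estimate and interval were close to those of SOX9 itself. ATG13, the adaptor that mTORC1 and ULK phosphorylate, had a mean normalized count of 3111 and stood at 73.2% of control (56.9% to 94.2%), at an adjusted p of 0.253 in the authors' DESeq2 test. RB1CC1, the large scaffold also called FIP200, stood at 79.2% (61.5% to 101.9%), and ATG101, which stabilises ATG13, at 80.4% (63.6% to 101.8%). Both had an adjusted p of 0.513 in the authors' DESeq2 comparison.

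ULK1 went the other way from its paralog. The ULK1 kinase had a mean normalized count of 2867 and a log2 fold change of 0.27 (standard error 0.27) in the authors' deposited table, or 1.21-fold (0.84 to 1.74), with an adjusted p of 0.821. The 2 kinases differed by 1.10 on the log2 scale, and their intervals did not overlap. This pair was singled out after its values were seen, and the difference is given as a description with no test. Both had wide errors for their counts: the standard error of ULK1 exceeded that of 95.6% of tested genes with a mean count within 1.5-fold of its own, and that of ULK2 exceeded 91.0%. No gene of this complex had an interval wholly inside a 1.5-fold change.

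The promoters of the 3 members with an unadjusted p under 0.05 and of ULK1, as the paralog of ULK2, are shown so that these genes can be compared at their start sites. They are RefSeq sequences of GRCh38.p14, 250 bases before to 50 after the annotated start, written 5′ to 3′ on the gene's strand. Capitals mark ACAAAG or ACAATG, forms of the core that SOX proteins bind, or their reverse complements, and would also mark CACGTG, the E-box core bound by TFEB, a regulator of autophagy genes.
ULK2, chr17:19867887-19868186, minus strand: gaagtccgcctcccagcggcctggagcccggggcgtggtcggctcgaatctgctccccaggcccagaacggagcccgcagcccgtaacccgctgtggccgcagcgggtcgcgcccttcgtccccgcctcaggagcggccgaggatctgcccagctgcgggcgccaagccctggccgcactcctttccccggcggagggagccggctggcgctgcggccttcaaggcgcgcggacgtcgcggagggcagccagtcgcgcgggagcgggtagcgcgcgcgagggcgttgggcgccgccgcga
ULK1, chr12:131894372-131894671, plus strand: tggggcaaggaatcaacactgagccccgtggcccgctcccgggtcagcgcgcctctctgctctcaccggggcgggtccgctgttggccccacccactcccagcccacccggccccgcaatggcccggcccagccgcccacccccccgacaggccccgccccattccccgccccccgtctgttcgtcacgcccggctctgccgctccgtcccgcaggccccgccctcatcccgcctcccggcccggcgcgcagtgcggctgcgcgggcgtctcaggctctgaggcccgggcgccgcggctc
ATG13, chr11:46617303-46617602, plus strand: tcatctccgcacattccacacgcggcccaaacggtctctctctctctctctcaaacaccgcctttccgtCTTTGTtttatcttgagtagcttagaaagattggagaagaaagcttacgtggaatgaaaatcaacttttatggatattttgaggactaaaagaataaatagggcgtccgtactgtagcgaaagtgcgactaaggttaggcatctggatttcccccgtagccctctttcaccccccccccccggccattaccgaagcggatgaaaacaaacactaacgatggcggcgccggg
ATG16L2, chr11:72814161-72814460, plus strand: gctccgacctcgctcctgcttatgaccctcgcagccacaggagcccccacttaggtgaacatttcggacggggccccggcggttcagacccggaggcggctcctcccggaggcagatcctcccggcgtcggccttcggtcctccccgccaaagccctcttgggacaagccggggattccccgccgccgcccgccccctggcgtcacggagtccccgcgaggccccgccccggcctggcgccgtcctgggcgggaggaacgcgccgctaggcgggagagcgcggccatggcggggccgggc

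Of these windows, that of ATG13 held 1 match to the SOX core and the other 3 held 0, and none of the 4 held CACGTG. The ATG13 window had a GC content of 49.0%, against 77.0% for ULK2, 78.3% for ULK1 and 75.3% for ATG16L2. RefSeq promoters were found for 33 of the 38 members. Of these, 4 (12.1%) held ACAAAG or ACAATG on either strand, namely ATG10, ATG13, ATG4C and PIK3R4. The share among 27305 promoters of the same length, 1 per gene (the first listed where a gene has several), was 24.6%. The GC content of those 27305 was not computed, so the 2 shares are not matched for base composition. CACGTG, which reads the same on both strands and overlaps neither SOX form, was in 2 windows (6.06%), those of ATG14 and ATG3, and in 7.43% of all. A match is a description of letters and does not show binding.

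The class III PI3-kinase genes had small estimated changes. The 6 genes had log2 fold changes between -0.24 and 0.21, and all 6 intervals lay inside a 1.5-fold change. PIK3C3, the lipid kinase VPS34, stood at 98.4% of control (77.0% to 125.8%), and its regulatory subunit PIK3R4 at 84.8% (68.0% to 105.6%). BECN1, the scaffold Beclin 1, was at 115.5% (91.3% to 146.1%). ATG14, which directs the complex to forming autophagosomes, was at 113.4% (88.5% to 145.2%), and UVRAG, which takes its place in a second form of the complex, was at 98.4% (77.5% to 125.0%). AMBRA1, a regulator of BECN1 and of the ULK complex, was at 87.0% (68.7% to 110.3%). Adjusted p ran from 0.653 to 0.989 in the authors' DESeq2 test. An unadjusted p under 0.05 was found for 0 of the 6, beside 11.1% of all tested genes.

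Genes of lipid supply and of the effectors that read the PI3-kinase signal had no call either, beside 1.81% of all tested genes. A list this short would rarely hold a call at that share. ATG9A, the scramblase whose vesicles seed the membrane, stood at 104.0% of control (84.1% to 128.8%). The lipid transfer proteins ATG2A and ATG2B were at 109.1% (86.2% to 138.0%) and 88.7% (63.7% to 123.5%). WIPI2, which recruits ATG16L1 to the membrane, was at 89.7% (71.5% to 112.6%). Its relative WIPI1 was at 124.2% (86.1% to 179.2%), with fewer reads behind it, a mean normalized count of 541 in the authors' deposited table. None of these 5 genes had an adjusted p below 0.770 in the authors' DESeq2 test.

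In the conjugation system 5 of 7 genes were positive, with a median log2 fold change of 0.15. ATG16L2, a relative of the scaffold ATG16L1, had a log2 fold change of 0.68 (standard error 0.28) in the authors' deposited table, or 1.60-fold (1.09 to 2.36), with a DESeq2 adjusted p of 0.259. Its mean normalized count of 360 was the lowest of all members. ATG16L1, which places the conjugation machinery on the membrane, was 1.23-fold (0.97 to 1.56), and ATG10, the E2-like enzyme for ATG12, was 1.36-fold (0.96 to 1.93). Their adjusted p-values were 0.556 and 0.544 in the authors' DESeq2 comparison. The other members lay closer to control. ATG7, the E1-like enzyme of both conjugation branches, was 1.11-fold (0.83 to 1.48), and ATG12, the ubiquitin-like protein, 1.09-fold (0.86 to 1.38). ATG5, its conjugation target, was at 90.6% of control (72.5% to 113.2%), and ATG3, the E2-like enzyme for the ATG8 family, at 92.1% (72.6% to 116.9%).

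The ATG4 proteases, which trim ATG8 proteins before conjugation and release them afterwards, were divided in sign. ATG4B, regarded as the main one for LC3, stood at 89.0% of control (72.0% to 110.0%) and ATG4D at 93.8% (72.0% to 122.3%). ATG4A was at 107.3% (80.6% to 142.8%) and ATG4C at 118.3% (85.1% to 164.4%). Adjusted p ran from 0.7996 to 0.944 over the 4 in the authors' DESeq2 test.

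Among the ATG8 proteins, 4 of 5 were negative. MAP1LC3B, whose protein LC3B is the usual marker of autophagosomes, had a mean normalized count of 1993 and a log2 fold change of -0.39 (standard error 0.22) in the authors' deposited table. It stood at 76.1% of control (56.3% to 102.8%), with a DESeq2 adjusted p of 0.530. MAP1LC3A stood at 91.1% (61.3% to 135.3%), GABARAP at 106.1% (83.5% to 134.8%) and GABARAPL2 at 99.3% (76.0% to 129.6%). The sign of GABARAPL2 turned to 0.00 on the positive side when fold changes were centred on the median gene.

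GABARAPL1 had the lowest estimate of all members and the least certain one. Its log2 fold change was -1.13 with a standard error of 0.87 in the authors' deposited table. Its mean normalized count there was 1605 and its DESeq2 adjusted p 0.711. GABARAPL1 thus stood at 45.6% of control, with an interval from 14.1% to 147.7%. Of 2832 tested genes with a mean count within 1.5-fold of its own, 10 had a larger standard error, and the median there was 0.190. These 10 included MCAM, NUPR1, PHGDH and ID3, named after their values were seen. The estimate for GABARAPL1 would have had to reach 7.33-fold to be called. Which libraries differed cannot be read from a table without values per library, and the reason for the large error was not tested.

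**Figure D3:**
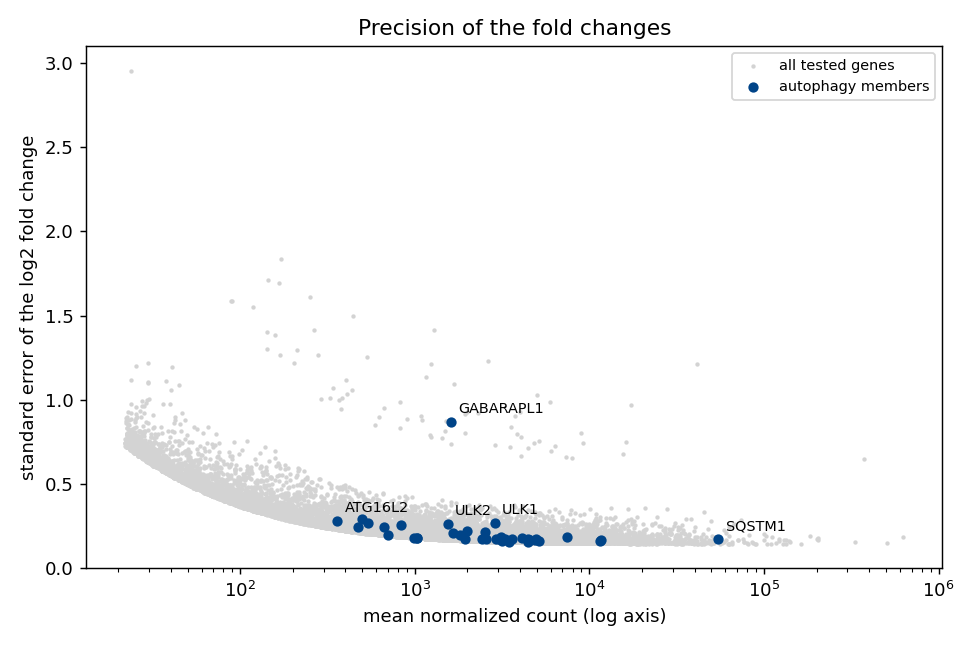
Mean normalized count (log axis) against the standard error of the log2 fold change for all tested genes (grey) and the autophagy genes (blue). GABARAPL1, at 0.87, lies among a scattered set of genes far above the main band, while the other 37 members lie in that band between 0.156 and 0.291.

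Of the roles with more than 1 gene, the cargo receptors had the highest median count, 11474, and the narrowest range of estimates. All 5 were slightly positive, with log2 fold changes from 0.08 to 0.15, and all 5 intervals lay inside a 1.5-fold change. SQSTM1, the ubiquitin-binding receptor p62, had a mean normalized count of 54810 and a log2 fold change of 0.15 (standard error 0.17) in the authors' deposited table. It stood at 111.2% of control (88.1% to 140.3%), with a DESeq2 adjusted p of 0.854. NBR1, which acts with p62, was at 110.3% (87.7% to 138.8%), and TAX1BP1 at 108.8% (87.3% to 135.7%). CALCOCO2, the receptor NDP52 for bacteria and mitochondria, was at 106.5% (84.7% to 133.9%), and OPTN, optineurin, at 105.9% (82.7% to 135.6%). STX17, the SNARE that lets the finished autophagosome fuse with the lysosome, stood at 98.4% (76.9% to 125.8%), at an adjusted p of 0.988 in the authors' DESeq2 test.

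Some values may be shared with other genes. In RefSeq 15 of the 38 genes have a span that overlaps another protein-coding or long noncoding gene, among them ATG13 with HARBI1, ATG16L2 with FCHSD2 and GABARAPL1 with GABARAPL1-AS1. The libraries were made with a stranded kit, per the labels, but the sources used here do not give the strand setting of the counting. MAP1LC3B has a near-identical copy, MAP1LC3B2, with a mean normalized count of 78.1 in the authors' deposited table, and GABARAPL1 has one, GABARAPL3, with 1.71. Reads could be split between such pairs, so MAP1LC3B and GABARAPL1 are uncertain to that extent.

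Other genes of the pathway gave the same count of calls. Lists of upstream regulators, further core machinery, further selective receptors, fusion and tethering factors, and lysosomal genes held 143 genes, of which 141 were matched and 135 tested. In the authors' deposited table, 0 of the 135 rose and 0 fell at a DESeq2 adjusted p under 0.05, where 1.81% of all tested genes did. At an unadjusted p under 0.05, 2 were higher and 7 lower, 6.67% beside the 11.1% of all tested genes. The list medians lay between -0.13 for fusion factors and 0.01 for lysosomal genes.

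Among the 37 tested upstream regulators, 1 was higher and 2 lower at an unadjusted p under 0.05, 8.11% beside 11.1% of all tested genes. Their median log2 fold change was -0.02. MTOR, the kinase that restrains the ULK complex, had a log2 fold change of 0.16 (standard error 0.21) in the authors' deposited table, and STK11, the kinase LKB1 upstream of AMPK, 0.18 (0.18). The further core machinery had a median of -0.05 over 19 tested genes. VMP1, a scramblase of the endoplasmic reticulum, had a log2 fold change of 0.01 (standard error 0.18) in the authors' deposited table. WDR45B, a relative of the WIPI proteins, had -0.53 (0.20) there, with an adjusted p of 0.176. It was the 1 gene of its list (5.26%) with an unadjusted p under 0.05.

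The 18 tested further receptors had a median of -0.02 and 0 genes with an unadjusted p under 0.05, beside 11.1% of all tested genes. NCOA4, the ferritin receptor, had a log2 fold change of -0.07 (standard error 0.20) in the authors' deposited table, and ATL3, a receptor for the endoplasmic reticulum, 0.15 (0.16). For the 15 fusion and tethering factors, the SNARE YKT6 had -0.24 (0.18) and VPS41 of the HOPS tether -0.18 (0.16) in the authors' deposited table. The 46 lysosomal genes had 1 gene higher and 3 lower at an unadjusted p under 0.05, which is 8.70% of that list. PSAP, the precursor of saposins, had a log2 fold change of -0.02 (standard error 0.17), and CTSD, the protease cathepsin D, 0.27 (0.19), with adjusted p-values of 0.990 and 0.678 in the authors' deposited table.

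**Figure D4:**
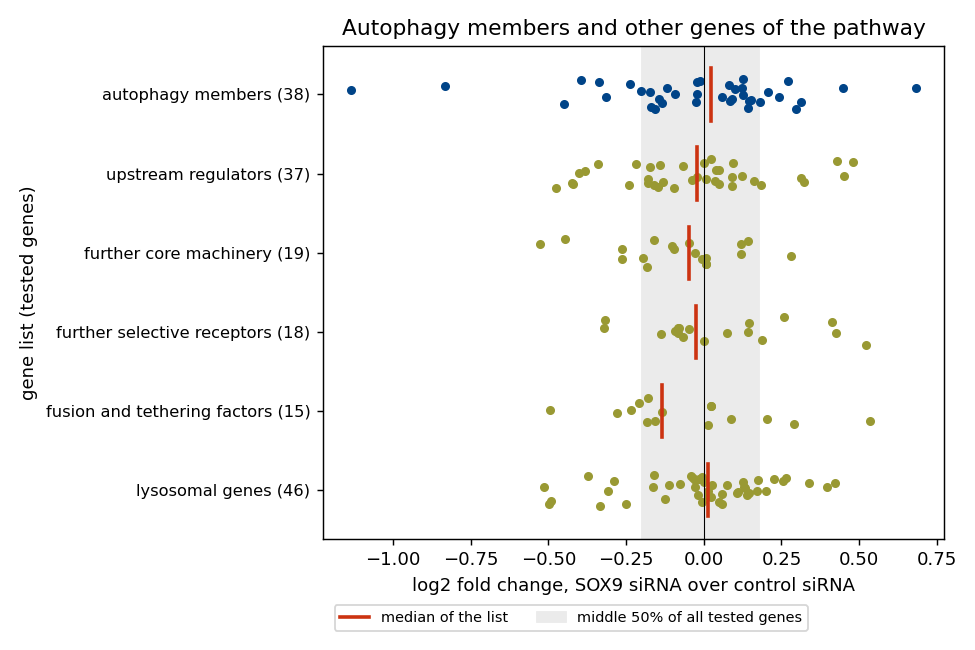
Log2 fold change of each tested gene of the autophagy members (blue) and of the 5 other lists (olive), with the list's median as a red line and the middle 50% of all tested genes as a grey band; points are spread vertically for legibility. The medians lie between -0.13 and 0.02, inside the grey band, and GABARAPL1 and ULK2 are the 2 lowest points.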

How the data were processed

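RNA from 2 SOX9 siRNA and 2 control siRNA samples of PANC-1 cells was sequenced to at least 60000000 reads per library, per the labels. Alignment with HISAT2 2.0.5, counting with featureCounts and testing with DESeq2 1.18.1 are named, without settings, per the submitters' processing notes, which give hg19 and mm10 as builds. Per the file headers, the file is the authors' DESeq2 comparison. Its mean normalized count is a signal the authors averaged over libraries. Fold changes and standard errors are log2 values the authors deposited, the Wald statistic is a score the authors deposited, and each p-value, raw or adjusted, is the deposited one. The adjusted p is given for 14063 genes, which are the ones meant by tested. The other 5767, at mean counts of 21.93 or less, have a Wald p-value but were left out of the adjustment. The sum of mean counts was 47653185, and single library depths are not in the table.

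Computed here, with Python 3.11.15, pandas 2.3.3 and scipy 1.17.1, were intervals, counts of calls, medians and alternatives. Steps were tested on simulated data. The members and lists were chosen with earlier results of these data known. Genes named by rule were all members and SOX9. Each other list added its called genes (up to 6) and the 2 genes not called with the highest mean counts. Named outside this rule were the keratins and VIM, near-identical copies, overlapping neighbours, genes picked after their values were seen, and relatives of those. Of the 143 entries, 3 matched by an older symbol and 2 had no match. For the calls, 9 alternatives were run: other count minimums, thresholds, adjustments and nulls, and centring.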

Additional observations from a re-analysis of the deposited data

How the results depend on the processing

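The count of 0 called autophagy genes held under 8 of 9 alternatives. Several of these can only remove calls, so the count could not have changed under them. They are the threshold of 0.01, Bonferroni, scaling by the robust spread of the Wald statistics (1.13) and the test against a 1.5-fold change. At an adjusted p under 0.1 it was 1, ULK2, which was lower. The smallest adjusted p among the members was between 0.0620 and 0.228 with adjustment over every gene, a higher minimum count, centring or scaling by the robust spread of the Wald statistics. It was 1 with Bonferroni or a test against a 1.5-fold change. For ULK2 the adjusted p ranged from 0.0620 to 1 over these alternatives. The count for the other pathway lists was 0 under all 9, including those that can only remove calls. The count over all tested genes was 254. It was 109 at an adjusted p under 0.01, 93 with the Wald statistics scaled, 3 in the test against a 1.5-fold change and 32 with Bonferroni. With fold changes centred it was 253, 131 higher and 122 lower. The members' median moved from 0.02 to 0.04 with centring and 0.07 with centring within bins of mean count. GABARAPL2 changed sign with centring, at an adjusted p of 0.998. SOX9 passed at an adjusted p under 0.1. The other 438 checks of 49 single genes kept direction and side of the threshold. Many of them could not have done otherwise. Only centring alters the fold changes, so direction was fixed under every other alternative. None of the 49 was called at the start, so alternatives that can only remove calls could not move one across the threshold. The precision is limited by 2 libraries per group. Libraries could not be left out, since the table has no values per library. No paired analysis was possible because the table holds no values per library.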

Other observations

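Genes of the other pathway lists with an unadjusted p under 0.05, named after their values were seen, belonged to different steps. Their smallest DESeq2 adjusted p was 0.175, per the authors' deposited table. The beta subunits of AMPK, the energy sensor that activates ULK1, had opposite signs: PRKAB1 stood at 75.8% of control (95% interval 59.9% to 95.9%) and PRKAB2 at 139.4% (100.6% to 193.1%). The gamma subunit PRKAG1 stood at 97.4% (78.5% to 120.8%) and PRKAG2 at 88.7% (71.7% to 109.6%). Alpha subunits PRKAA1 and PRKAA2 were at 84.6% (64.3% to 111.3%) and 102.9% (80.0% to 132.4%). RHEB, the small GTPase that activates mTORC1, stood at 76.8% (59.9% to 98.5%).

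Among lysosomal genes, the proton pump subunit ATP6V1H stood at 71.2% of control (55.5% to 91.4%). The other pump genes of that list ran from 80.9% for ATP6V1B2 to 110.6% for ATP6V0A1. The cholesterol carrier NPC2 was at 70.1% (53.7% to 91.4%) and the acid ceramidase ASAH1 at 70.7% (54.4% to 92.0%). The membrane protein LAMP2 stood at 134.0% (101.7% to 176.6%). VTI1B, a SNARE of late endosomes, was at 70.9% of control (55.1% to 91.3%). Without the alpha and gamma subunits and the other pump genes, and with WDR45B, these are the 9 of 135 tested genes, 6.67%. The share of all tested genes at that threshold was 11.1%.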
